A study of Mus musculus with 6 samples.

Results

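Spliceosomal small nuclear RNA (snRNA) genes were followed in small RNA libraries from thymic regulatory T (Treg) cells. Members were the genes of biotype snRNA in GENCODE vM21, matched by Ensembl identifier without its version, whose raw counts summed to at least 10 over the 6 libraries. Of 1383 snRNA genes among the 54547 genes counted, 361 had at least 1 count and 121 were members, selected on their summed counts, so that levels summed over the libraries are a description. Treg cells came from thymi of mice harvested at 7 weeks of age on a background labelled C5BL6/N, and 3 libraries of wild type (WT) mice were compared with 3 libraries of mice labelled miR-181a1/b1 -/-, called miR-181a/b-1-/- here. WT mice carried neither the deletion nor any other labelled allele. The miR-181a/b-1-/- mice lacked the locus in every cell and not only in Treg cells, and the methods state that cells were sorted from pooled thymi.

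Each snRNA is the core of a small nuclear ribonucleoprotein. U1 pairs with the 5′ splice site and U2 with the branch point, after which U4, U5 and U6 join as a preformed particle and U6 takes its place at the catalytic centre. A minor spliceosome that removes a rare class of introns uses U11, U12, U4atac and U6atac in their stead and shares U5, whereas U7 trims the ends of histone mRNAs. These RNAs are made in all nucleated cells from families of near-identical gene copies and many decayed copies. The deleted miRNA cluster tunes T cell receptor signalling in thymocytes, and the comparison asked whether its loss was accompanied by other snRNA levels.

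Gene counts per library ranged from 168293 to 307840, and 75.7% to 80.3% of the counting records of a library had been given to no gene. Between 41.7% and 46.2% of the records were alignments to more than 1 place. Only 1 count was recorded for Mir181a-1, in WT replicate 2, and none for Mir181b-1 in any library, so the targeted locus did not check the labels. All 9 Treg markers examined had counts, but Ctla4 had only 1 over all libraries, so its level could not be judged. Cd4, Cd3d, Cd3e and Cd3g among them are not restricted to Treg cells. Summed levels were 1358 to 1515 CPM (counts scaled to library size) in WT and 1273 to 1486 CPM in miR-181a/b-1-/- libraries. Of the markers of other cells, 5 erythroid genes were at 0 in all libraries, 5 myeloid genes had 3 counts, 6 genes of double-positive thymocytes had 19 and 5 B cell genes had 55. Fewer cells of a type and less RNA per cell cannot be told apart in bulk libraries.

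Most U6 counts lay on 2 diverged gene copies and not on genes with the canonical sequence. Rnu6, the canonical U6 copy (chr17:13432033-13432139, minus strand; all coordinates are GRCm38), had 2 counts over all libraries. Gm26063 (chr15:46151698-46151804, minus strand, in no other gene) had 3624 and Gm25930 (chr11:53390402-53390508, plus strand, in an intron of Aff4) had 1564.

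Gm26063 was 87.9% identical to Rnu6 over 107 bases and Gm25930 91.6%. The ACAGAGA box, which pairs with the 5′ splice site, stood in both, in 81 of the 93 U6 members (87.1%), in 458 of the 757 other U6 genes (60.5%) and in 42.2% of all 1383 snRNA genes, whereas its reverse complement stood in 0.58%. Of the 83 windows of 25 bases in Gm26063, 69 occurred in no other GENCODE transcript, and 37 of 83 did so in Gm25930. The whole sequence of Rnu6 is shared by 43 genes, Rnu6 included, and it had 0 such windows. These 43 genes held 176 counts together, of which 36 lay on the gene with most. Reads that align to several copies were not counted, so a count depends both on the amount of RNA and on whether a read could be placed on 1 gene, and these cannot be told apart here.

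The same arrangement was seen for U1, whose sequences, taken from the GENCODE vM21 transcripts, are shown because a small difference decides where a read can be placed. Capitals in Rnu1a1 (chr11:87422867-87423030, plus strand, in an intron of Tex14) mark the stretch ACTTACCT that pairs with the 5′ splice site, and the capital in Gm22513 (chr12:54696782-54696945, plus strand, in no other gene) marks its difference from Rnu1a1.

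Rnu1a1: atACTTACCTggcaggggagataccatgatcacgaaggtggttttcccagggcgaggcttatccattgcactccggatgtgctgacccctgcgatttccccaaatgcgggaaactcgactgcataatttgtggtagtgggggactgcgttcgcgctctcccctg
Gm22513: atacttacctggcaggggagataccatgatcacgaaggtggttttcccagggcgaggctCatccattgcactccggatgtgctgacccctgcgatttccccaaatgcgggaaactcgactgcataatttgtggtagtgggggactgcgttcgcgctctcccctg

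Gm22513 differed at 1 of 164 bases, had 14 unique windows of 140 and held 1804 counts. Rnu1a1 and its identical copies, 7 genes in all, had 0 unique windows and 38 counts. Counts did not follow the number of unique windows alone. Gm24305, at 99.4% identity, had 21 such windows and 22 counts, and Gm24924, also at 99.4%, had 0 and 117. The part of read placement in these counts was not tested. No count was recorded for Rnu1b1, Rnu1b2 or Rnu1b6, all of which have identical copies. ACTTACCT stood in 8 of 9 U1 members, in 32.1% of the 140 other U1 genes and in 4.34% of all snRNA genes, with its reverse complement in 0.07%. Gm26505, the member without it, lies in an exon of Tmco5b on the same strand and was 89.8% identical to the closest U1 reference copy.

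U4 was counted on a pair of neighbouring genes on chromosome 5, Gm24265 (chr5:115489459-115489599) and Gm24407 (chr5:115490254-115490394), both on the plus strand and in no other gene. No gene symbol names the U4, U4atac and U6atac copies used here, and these were recognised by sequence after the counts had been seen, so that the identity of 100% of Gm24265 and Gm25541 to the copy of their class follows from this choice. Capitals mark the ATTTTTG stretch, the binding site of the Sm protein ring, in Gm24265 and the 2 differing bases of Gm24407.

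Gm24265: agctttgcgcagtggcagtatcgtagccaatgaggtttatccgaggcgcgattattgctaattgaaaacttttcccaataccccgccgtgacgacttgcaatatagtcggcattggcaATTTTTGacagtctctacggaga
Gm24407: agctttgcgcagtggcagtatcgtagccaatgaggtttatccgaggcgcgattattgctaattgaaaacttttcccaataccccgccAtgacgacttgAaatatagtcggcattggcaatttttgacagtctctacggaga

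Each of these U4 genes had 36 unique windows of 117, and they held 1977 and 1379 counts. ATTTTTG stood in all 3 U4 members, in 1 of 11 other U4 genes and in 3.33% of all snRNA genes, with its reverse complement in 2.24%. The counts of Gm24265 were 1.30 to 1.82 times those of Gm24407 in every library.

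By class, U6 genes held 46.1% of the 17920 member counts, U4 18.9%, U1 17.0%, U6atac 8.12%, U2 6.75%, U5 2.09%, U11 0.54% and U12 0.47%. U6 supplied 93 of the 121 members, U1 9, U2 7, U5 6, U4 3, and U6atac, U11 and U12 1 each. The 6 members with most counts held 65.9% of the total, between 64.3% and 66.9% in each library. None of the 60 U7 genes and not the U4atac gene Gm22710 had a count in any library, which allows up to 3 counts per library, or 9.75 to 17.8 CPM, for counting error only. Rnu7 and Gm22710 lie in exons of Grcc10 and 2900060B14Rik on the same strand, and reads over more than 1 gene were not counted, so this limit does not bound the RNAs of these genes. Members were closer to the nearest reference copy of their class than other genes were. The median identity was 95.3% against 82.2% for U6, 99.4% against 76.2% for U1 and 97.9% against 77.8% for U2. Of the 139 snRNA genes with no unique window, 19 (13.7%) were members, against 11 of 44 with 1 to 10, 54 of 270 with 11 to 40 and 37 of 930 (3.98%) with more than 40. Windows were compared with transcripts only, not with the genome.

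**Figure D1:**
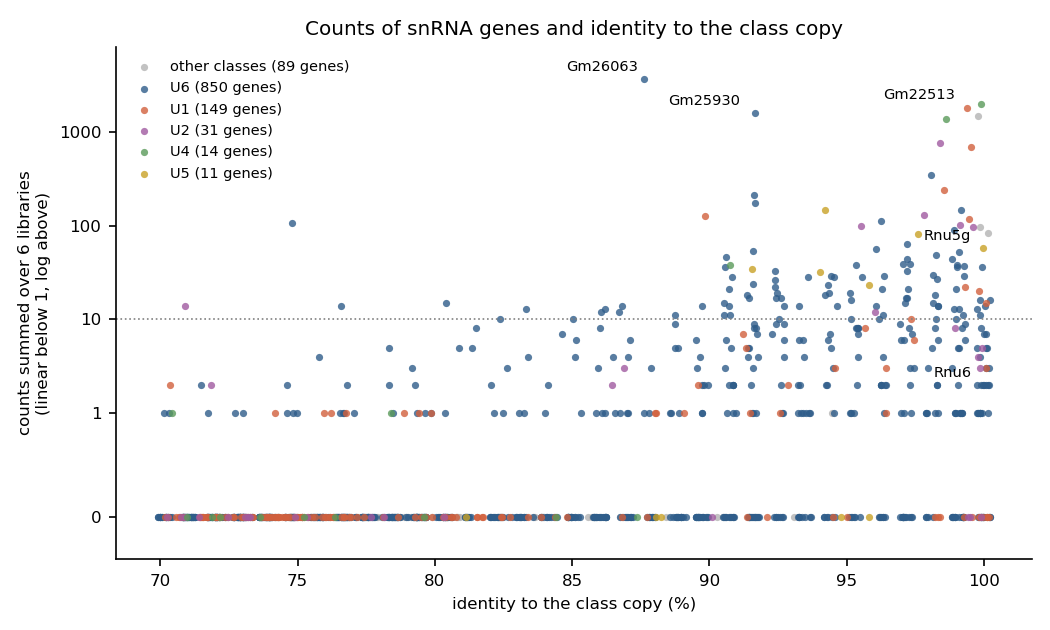
Each point is an snRNA gene assigned to a class. It is placed by its percent identity to the nearest reference copy of that class (horizontal) and its raw counts summed over 6 libraries (vertical). The vertical axis is linear below 1 and logarithmic above, with the dotted line at 10. Gm26063 stood highest at 3624 counts and 87.9% identity, whereas Rnu6, identical to the class copy, had 2.

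The values closest to the threshold were low and scattered over libraries. Taken in alphabetical order among ties, Gm22306, Gm22685, Gm23137 and Gm23686 had sums of 10, and Gm24259, Gm24707, Gm25132 and Gm25245, just outside, had sums of 9. Gm22306 had 7 of its 10 counts in miR-181a/b-1-/- replicate 3. Of the members, 66 lay in no other annotated gene, 27 within a gene on the same strand, 2 of these in an exon, and 30 within a gene on the opposite strand.

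The share of gene counts taken by all snRNA members differed between the genotypes by less than the spread between libraries. The share was 0.923%, 1.17% and 1.71% in WT replicates 1 to 3 and 1.09%, 1.17% and 1.62% in the corresponding miR-181a/b-1-/- libraries. The genotypes overlapped, with means of 1.27% ± 0.401 (SD, n = 3) and 1.29% ± 0.286 (SD, n = 3), a difference of 0.03 percentage points. Wilson 95% intervals, which cover counting error only, ran from 0.884% to 0.964% in the lowest library and from 1.66% to 1.76% in the highest. The library numbered 3 was therefore the highest in each genotype, by more than its counting error. Without both of these libraries the difference was 0.08 percentage points.

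The higher level in the libraries numbered 3 ran through nearly all classes. Of the 27 members that passed the filter for testing, 24 were highest in replicate 3 among WT libraries and 23 among miR-181a/b-1-/- libraries, against 32.9% and 36.8% of all 1391 genes tested. Median deviations of the members from their genotype mean were -0.41, -0.04 and 0.44 (log2 CPM) in WT replicates 1 to 3 and -0.32, -0.14 and 0.57 in the corresponding miR-181a/b-1-/- libraries. The medians of 1140 protein-coding genes stayed between -0.04 and 0.05 in all libraries. Other small RNAs were also higher in miR-181a/b-1-/- replicate 3, with median deviations of 0.54 for 25 miRNA genes and 0.32 for 106 small nucleolar RNA genes. In WT replicate 3 these medians were -0.14 and 0.08. U5 departed from the other classes in WT, where its 3 tested genes were highest in replicate 2, with a median deviation of 0.69 there and -0.30 in replicate 3. Shares of small Cajal body RNAs, which guide snRNA modification, were also highest in replicate 3, at 0.546% in WT and 0.571% in miR-181a/b-1-/- cells, as were those of the annotation class of miscellaneous RNAs, at 2.68% and 2.79%. The part of library preparation in this was not tested.

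**Figure D2:**
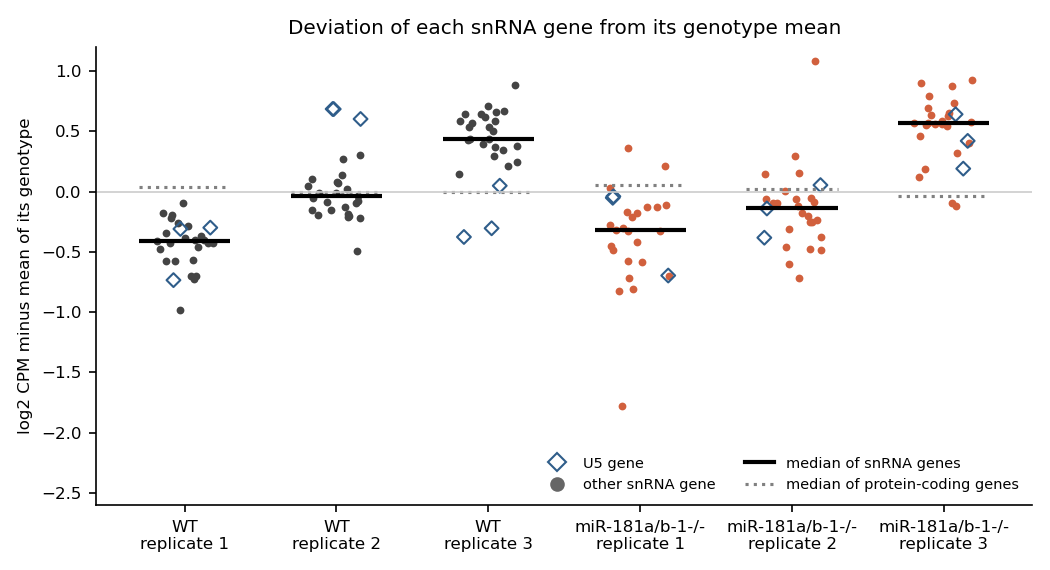
Each point is a tested snRNA gene in a library, given as its log2 CPM minus the mean of its genotype, with U5 genes as open diamonds, the median of the snRNA genes as a black line and that of protein-coding genes as a dotted line. The snRNA medians were lowest in replicate 1 and highest in replicate 3 of each genotype, while the U5 genes of WT were highest in replicate 2.

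The 27 tested members had at least 10 counts in at least 3 libraries. They held 88.0% of the member counts, and 15 of them had at least 10 counts in all 6 libraries. The other 94 members had sums of 10 to 84 and were not tested. The quasi-likelihood test of edgeR, adjusted by the Benjamini-Hochberg method, called 0 of the 27 members at an adjusted p under 0.05, as it called 0 of all 1391 genes (0%). DESeq2 also called 0 of both. At an unadjusted p under 0.05, 1 member had a negative and 0 had a positive fold change (miR-181a/b-1-/- against WT), where 72 of all genes (5.18%) passed in either direction. Every miR-181a/b-1-/- value was under every WT value for 1 member and 4.82% of all genes, and above them for 0 members and 3.24% of all genes. Fold changes were positive for 20 members and negative for 7, with a median log2 fold change of 0.07 against -0.004 for all genes. This excess of positive values rested on single libraries: without miR-181a/b-1-/- replicate 3, 24 of 26 members were negative and the median was -0.31; without WT replicate 1, 22 of 26 were negative and the median was -0.13; without WT replicate 3, 3 of 25 were negative and the median was 0.41. Without both libraries numbered 3, 11 of the 22 members tested were negative.

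**Figure D3:**
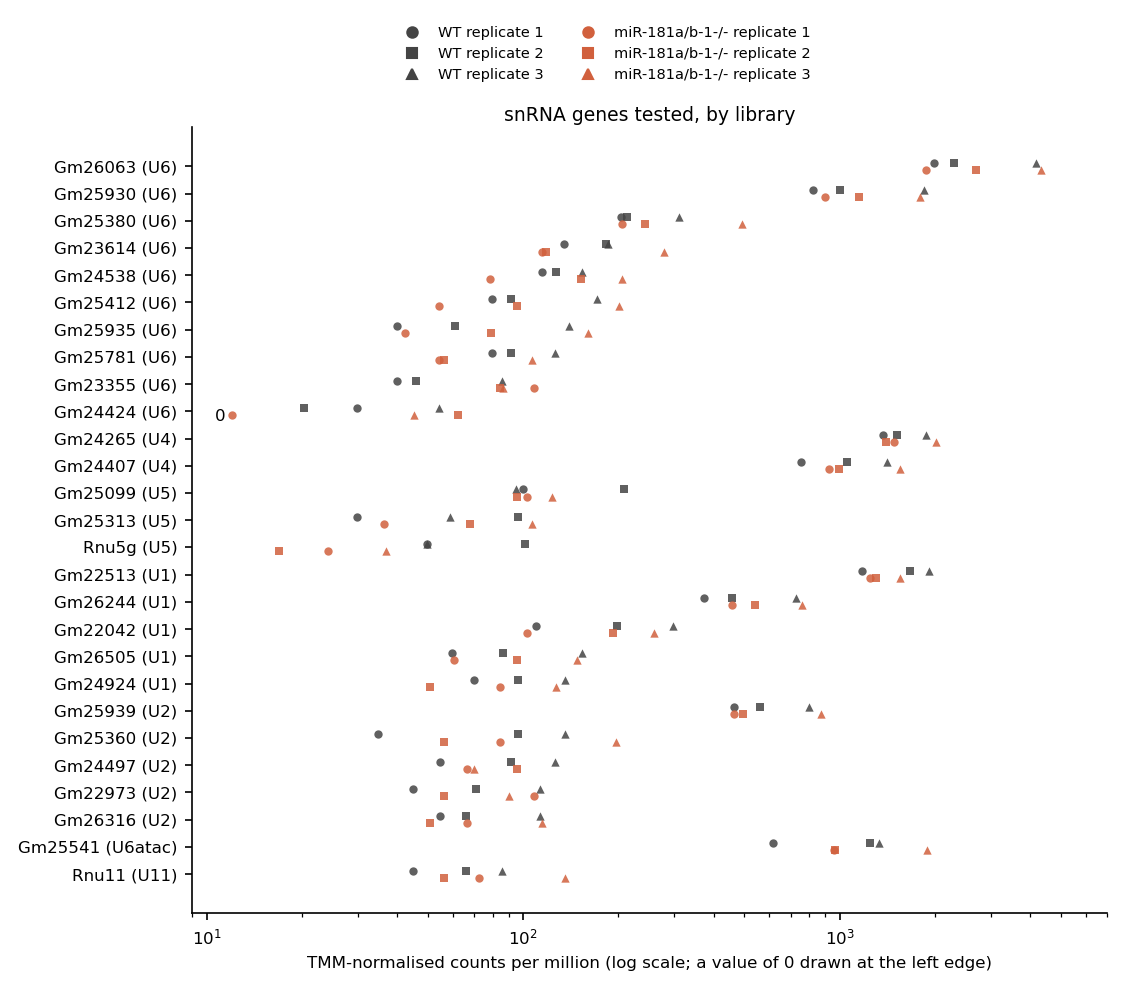
TMM-normalised CPM (horizontal, log scale) of the 27 tested snRNA genes in each library, ordered by class, with WT in grey and miR-181a/b-1-/- in orange and a marker shape per replicate number. The genotypes overlapped for 26 genes, and for Rnu5g the miR-181a/b-1-/- libraries, at 16.9 to 36.9, lay below the WT libraries, at 49.6 to 102.

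U6 forms the catalytic core with U2. The level of Gm26063 was 1982, 2302 and 4173 CPM (TMM-normalised, as for all levels below) in WT replicates 1 to 3 and 1881, 2689 and 4340 CPM in the corresponding miR-181a/b-1-/- libraries. The groups overlapped almost wholly and replicate 3 stood apart in each. Its log2 fold change was 0.08 (SE 0.300), with an edgeR adjusted p of 0.983. Gm25930 was at 826, 1006 and 1843 CPM in WT and 899, 1150 and 1797 CPM in miR-181a/b-1-/- cells, and its log2 fold change was 0.07 (SE 0.302). The ratio of the counts of these genes was steady, from 2.09 to 2.42 over the libraries, and together they took 60.5% to 66.4% of U6 member counts.

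The other 8 tested U6 genes were at lower levels, and the genotypes overlapped for each of them. Gm25380, at 98.1% identity, averaged 243 ± 59.2 CPM (SD, n = 3) in WT and 313 ± 156 CPM in miR-181a/b-1-/- cells. Gm23614 averaged 167 and 171 CPM, Gm24538 132 and 145 CPM, Gm25412 114 and 117 CPM, and Gm25935 80.2 and 93.7 CPM. Gm25781, a truncated copy of 84 bases, averaged 99.1 ± 24.2 CPM in WT and 72.4 ± 29.7 CPM in miR-181a/b-1-/- cells, the only negative log2 fold change among the tested U6 genes at -0.41 (SE 0.342). Gm24424 was at 0 in miR-181a/b-1-/- replicate 1 and at 20.3 to 62.0 CPM elsewhere.

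Gm23355 had the highest log2 fold change of the 27 tested members. It was at 39.8, 45.7 and 85.6 CPM in WT and 109, 84.6 and 86.1 CPM in the corresponding miR-181a/b-1-/- libraries, so that WT replicate 3 overlapped the other group. Its log2 fold change was 0.67 (SE 0.349, edgeR adjusted p = 0.974). Gm23355 differs from Rnu6 at a level of 99.1% identity and had 0 unique windows, and it reached 10 counts in 1 WT library and in all 3 miR-181a/b-1-/- libraries.

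U4 is the partner that holds U6 inactive until the spliceosome is assembled. Gm24265 was at 1374, 1519 and 1875 CPM in WT and 1490, 1398 and 2014 CPM in miR-181a/b-1-/- cells. These values overlapped, with a log2 fold change of 0.04 (SE 0.250), and Gm24265 had the smallest ratio of highest to lowest library of all tested members, at 1.47. Gm24407 was at 757, 1057 and 1411 CPM in WT and 923, 992 and 1546 CPM in miR-181a/b-1-/- cells, with a log2 fold change of 0.11 (SE 0.277). The third member, Gm25899, had 38 counts and was not tested.

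U1 opens spliceosome assembly. Gm22513 was at 1175, 1667 and 1911 CPM in WT and 1248, 1302 and 1551 CPM in miR-181a/b-1-/- cells, which overlapped, and its log2 fold change was -0.21 (SE 0.253, edgeR adjusted p = 0.980). Gm26244 was at 373, 457 and 730 CPM in WT and 458, 541 and 763 CPM in miR-181a/b-1-/- cells, with a log2 fold change of 0.18 (SE 0.284). Neither gene differed beyond the spread between libraries. Gm22042 averaged 202 and 184 CPM in WT and miR-181a/b-1-/- cells, Gm24924 100 and 87.4 CPM, and Gm26505 99.8 and 101 CPM. The value of Gm26505 is uncertain because of the Tmco5b exon on the same strand.

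U2 recognises the branch point with the stretch GTAGTA, which stood in 6 of 7 U2 members, 50.0% of 24 other U2 genes and 3.69% of all snRNA genes (its reverse complement in 1.16%). Gm25939 was at 463, 559 and 798 CPM in WT and 464, 496 and 874 CPM in miR-181a/b-1-/- cells, nearly the same order and size in both. Its log2 fold change was 0.02 (SE 0.286). Gm25360 had the largest ratio of highest to lowest library among the tested U2 genes, 5.65, from 34.9 CPM in WT replicate 1 to 197 CPM in miR-181a/b-1-/- replicate 3, and a log2 fold change of 0.39 (SE 0.418). Gm24497 averaged 90.8 and 77.3 CPM in WT and miR-181a/b-1-/- cells, Gm22973 76.2 and 85.1 CPM, and Gm26316 77.8 and 77.3 CPM. Rnu2-10, the named U2 copy with 4 identical genes, itself included, had 4 counts. Gm25360, Gm24497 and Gm25939 lie in a row on chromosome 1, on the plus strand between positions 72226240 and 72255198.

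The minor spliceosome was represented by U6atac, U11 and U12. Gm25541, the U6atac gene (chr2:27539805-27539930, minus strand, in no other gene), was the fourth of the 27 tested members per length, at 9269 ± 3424 CPM per kilobase (SD over 6 libraries). It had 55 unique windows of 102 and no identical copy, and capitals in its sequence mark AAGGAGA, the counterpart of the U6 box.

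Gm25541: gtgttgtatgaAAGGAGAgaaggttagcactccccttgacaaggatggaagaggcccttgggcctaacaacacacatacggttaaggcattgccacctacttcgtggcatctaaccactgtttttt

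Gm25541 was at 617, 1245 and 1334 CPM in WT and 959, 970 and 1883 CPM in miR-181a/b-1-/- cells. WT replicate 1 was the lowest and miR-181a/b-1-/- replicate 3 the highest, with the rest between, and the log2 fold change was 0.26 (SE 0.305, edgeR adjusted p = 0.980). Rnu11 was at 44.8, 66.1 and 85.6 CPM in WT and 72.4, 56.4 and 135 CPM in miR-181a/b-1-/- cells, with a log2 fold change of 0.47 (SE 0.365). It lies opposite an exon of Gm28872, and whether reads were counted by strand is not given in the sources used here, so reads of the pair cannot be told apart. Rnu12, which recognises the branch point of minor introns, had raw counts of 7, 9 and 17 in WT and 4, 6 and 41 in miR-181a/b-1-/- cells and did not pass the filter. Its value in miR-181a/b-1-/- replicate 3 stood apart from the other 5 libraries.

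Per length, the order of the tested members was Gm26063 (27051 CPM per kilobase), Gm25930 (11715), Gm24265 (11430), Gm25541 (9269), Gm22513 (8998) and Gm24407 (7903), followed by Gm26244 (3377) and Gm25939 (3188). The spread over the 6 libraries was 10218 for Gm26063 and 4227 for Gm25930, so neighbours from the second to the sixth did not differ beyond their spread. These levels count only reads that could be placed on 1 gene.

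U5, shared by both spliceosomes, aligns the exons during splicing. Rnu5g was the only one of the 27 tested members with an unadjusted p under 0.05. With no count filter, 4 of all 121 members had one, Rnu5g among them, as did 442 of 16588 genes (2.66%). Rnu5g (chr9:65201726-65201841) and Gm25313 (chr9:65196572-65196687) lie near each other on the minus strand, opposite an intron of Parp16. They are 97.4% identical over 116 bases.

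Each gene had 12 unique windows of 92. Raw counts of Rnu5g were 10, 20 and 11 in WT and 4, 3 and 9 in the corresponding miR-181a/b-1-/- libraries, and no value of the second group reached the lowest of the first. In CPM the means were 67.0 ± 29.998 (SD, n = 3) and 26.0 ± 10.1 (SD, n = 3). The log2 fold change was -1.28 (SE 0.476), with an edgeR p of 0.0129 and an adjusted p of 0.815. Rnu5g was the only tested member that passed the filter through WT libraries alone, with at least 10 counts in 3 WT and 0 miR-181a/b-1-/- libraries, and such a gene had to be lower in the second group.

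Neither of the other tested U5 copies passed the unadjusted threshold, and the difference between copies was not tested. Gm25099 was at 99.6, 208 and 94.6 CPM in WT and 103, 95.8 and 123 CPM in miR-181a/b-1-/- cells, with a log2 fold change of -0.30 (SE 0.335). Gm25313 was at 29.9, 96.6 and 58.6 CPM in WT and 36.2, 67.6 and 107 CPM in miR-181a/b-1-/- cells, with a log2 fold change of 0.25 (SE 0.409). The genotypes overlapped for both. Gm23143, Gm22265 and Gm23287 had 34, 32 and 23 counts and were not tested. Rnu5g made up 20.4%, 21.3% and 19.0% of the U5 counts in WT replicates 1 to 3 and 9.76%, 6.52% and 10.5% in the corresponding miR-181a/b-1-/- libraries. This share, chosen after the counts of Rnu5g had been seen and given with no test, averaged 20.2% ± 1.17 and 8.92% ± 2.11 (SD, n = 3 each), from 41 of 201 and 16 of 173 counts.

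**Figure D4:**
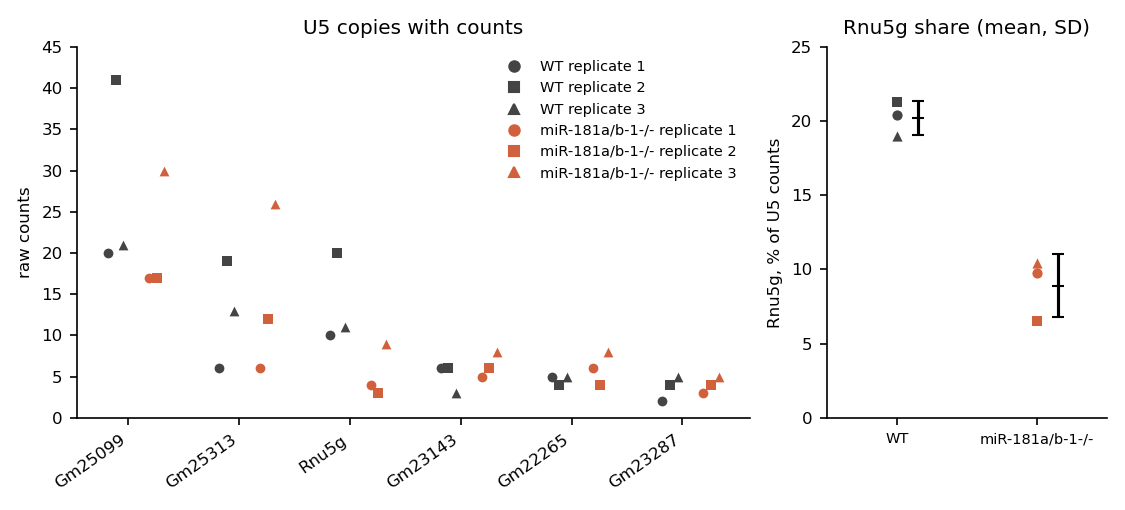
Left, raw counts of the 6 U5 genes with counts in each library; right, Rnu5g as a percent of all U5 counts, with mean and SD beside the points. Rnu5g lay between 19.0% and 21.3% in WT and between 6.52% and 10.5% in miR-181a/b-1-/- libraries. The share was chosen after the counts of Rnu5g had been seen and was not tested.

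**Figure D5:**
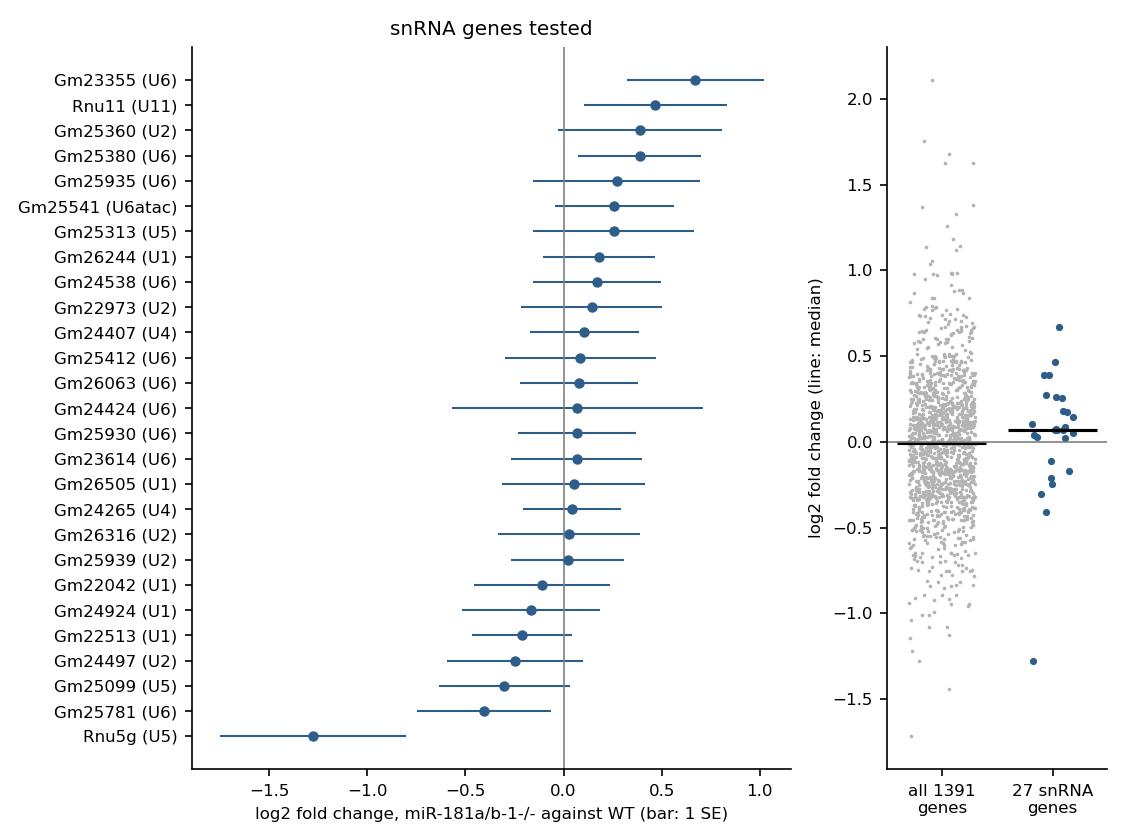
Left, log2 fold change of each tested snRNA gene, miR-181a/b-1-/- against WT, with 1 SE; right, the same values beside those of all 1391 genes tested, with medians as lines. Values ran from -1.28 for Rnu5g to 0.67 for Gm23355, with 7 below 0, within the range of -1.72 to 2.11 for all genes.

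Of 76 genes for proteins that build, bind or process snRNAs, only 9 had enough counts to be tested, and 0 were called at an adjusted p under 0.05 by edgeR. Snrnp70, which encodes the main U1-specific protein, had an unadjusted p under 0.05, at 19.9, 50.8 and 45.1 CPM in WT and 42.2, 73.3 and 107 CPM in miR-181a/b-1-/- cells. The groups overlapped, and its log2 fold change was 0.98, with an adjusted p of 0.896. Snrpb, which encodes a core Sm protein, was far the highest. It was at 5075 ± 1140 CPM in WT and 6084 ± 1560 CPM in miR-181a/b-1-/- cells (SD, n = 3), with a log2 fold change of 0.26. Its raw counts summed to 6855, against 70 for Snrpd3, the other Sm core gene tested. These are counts of RNA fragments in small RNA libraries, and whether they follow the level of Snrpb mRNA was not tested. Sf3b1, a U2 protein, averaged 158 and 141 CPM in WT and miR-181a/b-1-/- cells, Sf3b2 121 and 118 CPM, and Sart1, a protein of the U4, U5 and U6 particle, 136 and 101 CPM. None of the genes of the LSm ring, the U7 particle, the minor spliceosome or the assembly and export machinery had enough counts.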

How the data were processed

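Small RNA of sorted thymic Treg cells was sequenced from 3 WT and 3 miR-181a/b-1-/- samples, grouped by their titles. The authors trimmed adapters with Flexbar, removed ribosomal RNA with Bowtie 2, aligned with STAR (GRCm38.p6, per the labels) and deposited raw HTSeq counts per gene, without normalization. Multiple alignments were left out of those counts, which lowers near-identical snRNA copies. A table of the authors' own comparison and normalized miRNA values was not used.

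Identifiers were matched to GENCODE vM21 (53620 of 54547). Class was the best of the alignments to reference copies of the classes, at an identity of at least 70%. These copies were named genes, with more than 1 for U1, and for U4, U4atac and U6atac genes recognised by sequence. Records given to no gene were left out. edgeR 4.0.16 (quasi-likelihood, TMM, genes with at least 10 counts in at least 3 libraries) was fitted to all 1391 genes in R 4.3.3, and tested on simulated data first. DESeq2 1.42.0 was an alternative. Members and gene lists were chosen with earlier results of these data known. Named were all tested members, the highest of each class, those near the threshold, and partner genes past the threshold or the 4 highest. Snrnp70 and the Rnu5g share were added after their values were seen. SciPy 1.17.1, Biopython 1.88 and Python 3.11.15 were used for the rest. Some sequences are not reported here.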

Additional observations from a re-analysis of the deposited data

Results flagged for a closer look

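Of the classes of records given to no gene, only 1 separated the genotypes. Records over more than 1 gene averaged 22.9% in WT and 21.4% in miR-181a/b-1-/- libraries. Alignments to more than 1 place averaged 43.9% and 44.4%. The genotypes overlapped for both. The share of records that overlapped no annotated gene was 9.01%, 10.2% and 9.94% in WT replicates 1 to 3 and 10.7%, 13.1% and 13.1% in the corresponding miR-181a/b-1-/- libraries, so that every miR-181a/b-1-/- library lay above every WT library. The means were 9.71% ± 0.626 and 12.3% ± 1.36 (SD, n = 3 each), a difference of 2.57 percentage points. What these records hold, and their part in any snRNA value, was not tested.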

How the results depend on the processing

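No snRNA gene was called at an adjusted p under 0.05 under any of the 14 alternative fits (DESeq2, other scalings and filters, the replicate block, each library left out, and, added after seeing the data, both libraries numbered 3 left out). The smallest adjusted p of a tested member was 0.487. At an unadjusted p under 0.05, 1 of the 27 tested members was lower, and with no count filter 4 of 121 members (and 442 of 16588 genes) passed in either direction. Among all genes, 1 was lower and 7 higher with no count filter, and 37 and 35 had an unadjusted p under 0.05. With libraries left out, 0 to 10 genes were lower and 0 to 5 higher. When libraries were left out, the difference in snRNA share was -0.15 to 0.25 percentage points and the median log2 fold change of members was -0.31 to 0.41. The cause was not tested.

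Rnu5g gave a log2 fold change of -1.67 to -1.06 under the 9 alternatives in which it could be tested, with an unadjusted p of 0.00499 to 0.0412 and an adjusted p of 0.487 to 1. It failed the filter whenever a WT library was left out, and when at least 10 counts were asked of every library. In the fits that kept the filter it passed through WT libraries alone, so the negative direction was set in advance. The range of those fits adds no support for a difference. With 1 library left out, the difference in the Rnu5g share of U5 counts, miR-181a/b-1-/- minus WT, was -12.1 to -10.1 percentage points. This share was chosen after the counts had been seen, and these values reuse the same counts. They are no further support for a difference.

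Replicate numbers were not taken to pair the samples, since the correlations of deviations over all 1391 genes were 0.23, 0.08 and 0.18, although each library correlated best with its own number there. Over the 27 tested members they were -0.13, -0.32 and 0.24. Correlations across genes leave out a shift common to all members, so they cannot decide whether the numbers pair the snRNA levels. The median deviations of the members rose from replicate 1 to replicate 3 in both genotypes. With the replicate block, 0 members were called, 10 of 27 were negative and 88 genes had an unadjusted p under 0.05. The direction turned for Gm25939 (-0.00405), Gm26316 (-0.0111) and Gm24424 (-0.0160), and with library sizes only for Gm25939 (-0.0180) and Gm26316 (-0.0144).

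When libraries were left out, the log2 fold change changed sign for 23 of 27 members. It kept its sign for Gm25781 (-0.84 to -0.18), Gm22513 (-0.41 to -0.0468) and Gm23355 (0.45 to 1.11). Gm23355 was not tested without both libraries numbered 3. Rnu5g cannot be set beside these genes. It passed the filter through WT libraries alone and was tested only with a miR-181a/b-1-/- library left out, so its sign was set in advance. The edgeR unadjusted p of Gm23355 was 0.0108 without WT replicate 3, and that of Gm25781 was 0.0376 without miR-181a/b-1-/- replicate 3. The ranges of the 23 were -0.46 to 0.30 for Gm22042, -0.15 to 0.56 for Gm22973, -0.52 to 0.28 for Gm23614, -0.14 to 0.19 for Gm24265, -0.17 to 0.36 for Gm24407, -0.20 to 0.55 for Gm24424, -0.53 to 0.16 for Gm24497, -0.19 to 0.44 for Gm24538, -0.59 to 0.12 for Gm24924, -0.63 to 0.14 for Gm25099, -0.23 to 0.69 for Gm25313 and -0.36 to 0.85 for Gm25360. They were -0.12 to 0.62 for Gm25380, -0.61 to 0.52 for Gm25412, -0.14 to 0.47 for Gm25541, -0.26 to 0.50 for Gm25930, -0.42 to 0.97 for Gm25935, -0.34 to 0.28 for Gm25939, -0.30 to 0.48 for Gm26063, -0.0615 to 0.52 for Gm26244, -0.43 to 0.41 for Gm26316, -0.36 to 0.52 for Gm26505 and -0.0413 to 0.73 for Rnu11.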
